A study of Homo sapiens with 6 samples.

Results

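The genes described here are 46 genes of the actin cytoskeleton: the actins themselves and proteins that bind actin monomers or filaments. They were picked by symbol from a list of names drawn up with earlier results of these data known, and each of the 46 symbols matched 1 row of the 36651 genes in the deposited table of FPKM (fragment counts scaled by gene length and by library size). RNA was sequenced from HCT116, an established human line of colorectal carcinoma cells, in 3 libraries of a control group and 3 libraries of a group labelled siMTA1. The control libraries are titled wild type and the others CrMTA1, an abbreviation the labels leave unexplained, so the labels leave it unsettled how MTA1 was lowered, by RNA interference or by editing of a line. Neither a treatment time nor a control RNA is named, and nothing says that the replicates were separate cultures, so a p-value reflects the spread of these libraries alone, part of which may be technical.

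Actin exists as single subunits and as filaments that grow at one end and are taken apart at the other. Thymosins and profilin hold or deliver the subunits, cofilin and its partners dismantle filaments, and the ARP2/3 complex and formins start new ones. Tropomyosins coat filaments, myosin pulls on them, crosslinkers such as filamin and alpha-actinin tie them into networks, and ezrin or talin fasten them to the membrane. The pool of free actin subunits also acts on transcription, because it holds back the MRTF coactivators of serum response factor (SRF), whose binding sequence in DNA is called the CArG box and occurs at many actin genes.

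Because several of these genes moved together, their promoters were searched for the CArG box on both strands (a box on one strand is also a box on the other). RefSeq promoter windows on GRCh38.p14, from 250 bases before to 50 bases after a gene's start, were at hand for 43 of the 46 genes, in 72 windows. ACTB, ARPC1B and MYL9 had no window and were not searched. A full match lay in windows of 6 of these 43 genes, or in 8.33% of the 72 windows against 1.29% of all 35116 windows. The upstream stretches around the 6 matches are printed 5′ to 3′ with the box in capitals, the first 4 from genes that were higher with siMTA1 and the last 2 from genes that did not pass the test.
ACTG1, minus strand, chr17:81512844-81512933: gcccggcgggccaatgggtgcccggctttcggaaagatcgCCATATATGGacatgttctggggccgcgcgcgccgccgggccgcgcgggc
FLNA, minus strand, chrX:154374679-154374768: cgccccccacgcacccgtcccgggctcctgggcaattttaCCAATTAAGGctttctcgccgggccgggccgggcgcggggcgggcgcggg
TPM4, plus strand, chr19:16067325-16067414: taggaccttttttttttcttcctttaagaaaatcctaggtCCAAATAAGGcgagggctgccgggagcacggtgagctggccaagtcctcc
ACTN1, minus strand, chr14:68977688-68977777: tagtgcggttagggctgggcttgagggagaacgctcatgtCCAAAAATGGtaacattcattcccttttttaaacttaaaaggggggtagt
CNN2, plus strand, chr19:1026479-1026568: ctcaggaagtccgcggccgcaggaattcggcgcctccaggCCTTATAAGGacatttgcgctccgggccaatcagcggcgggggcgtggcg
MYO1E, minus strand, chr15:59372872-59372942: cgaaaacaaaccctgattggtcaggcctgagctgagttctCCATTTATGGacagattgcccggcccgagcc

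The first base of the box lay 94 bases before the start in ACTG1 and in FLNA, 89 in CNN2, 31 in MYO1E, 171 in ACTN1 and 173 in TPM4. ACTN1 has 4 windows and TPM4 has 3, one for each annotated start, and in both genes 1 window held the box. Which start was used in these cells was not measured here. Of the 123 tested genes with a box in any window, these 6 included, 18 were higher with siMTA1 (14.6%) and 11 lower (8.94%), beside 5.79% higher and 12.2% lower among 8387 tested genes whose windows held none, a difference that was not tested. The 18 include ACTG1, FLNA, TPM4 and ACTN1, which are among the genes whose rise prompted the search, so part of the 14.6% was fixed beforehand. A match of letters is a description and not a bound site.

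MTA1, the gene the label names, was at 65.90, 67.61 and 66.74 FPKM in the control libraries (given throughout in the order 1, 2, 3) and reached 44.55, 43.98 and 47.97 FPKM with siMTA1, 68.2% of the control mean (log2 fold change −0.54, limma adjusted p = 0.000376). Steps in the low values implied 42900000 to 66700000 fragments per library. KRT8, KRT18, KRT19 and EPCAM transcripts were abundant in all 6 libraries. KRT20 was low, at 3.95 to 5.38 FPKM, as was CDX2, at 3.91 to 5.05 FPKM. Of the 10 epithelial and colorectal markers 2, CDX1 and CEACAM5, stayed under 1 FPKM. The summed level of these 10 was 6601.18 to 6921.27 FPKM in control and lower without overlap with siMTA1, at 5705.42 to 6352.55 FPKM. Of the 10, the keratin genes KRT8 (log2 fold change −0.29, limma adjusted p = 0.0148) and KRT18 (−0.25, adjusted p = 0.0336) fell and CDH1, E-cadherin, rose (0.27, adjusted p = 0.00874). All 5 endothelial markers stayed under 1 FPKM as well. Of 9 fibroblast and smooth muscle markers 6 stayed under 1 FPKM, DCN being listed at 0, and their summed level was 15.59 to 16.50 FPKM in control and 15.46 to 16.40 FPKM with siMTA1. Of 8 leukocyte markers 6 stayed under 1 FPKM, and the sum was 3.29 to 3.71 FPKM in control and 4.70 to 4.88 FPKM with siMTA1, where CORO1A, a coronin of blood cells, was the 1 that rose. Of 9 markers of striated muscle 6 stayed under 1 FPKM, among them MYH2, MYH7, CKM and MYOG at 0.02 FPKM or less. The sum of these 9 was 220.62 to 241.21 FPKM in control and 243.56 to 282.29 FPKM with siMTA1, most of it TNNT1, and TNNT2 and DES rose. The part of other cell types in the results was not tested.

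All 46 genes passed the filter of a mean of 1 FPKM and entered a limma test of log2(FPKM + 1) over 12141 genes, with siMTA1 against control and calls at a Benjamini-Hochberg adjusted p under 0.05. With siMTA1, 11 of the 46 genes rose, 2 fell and 33 did not pass. The genes that rose were both actins, the thymosins TMSB10 and TMSB4X, WDR1, gelsolin (GSN), the tropomyosin TPM4, the myosin heavy chain MYH9 and the crosslinkers FLNA, ACTN1 and ACTN4, and the genes that fell were CAPZA1 and CORO1B. Called genes made up 28.3% of the 46, beside 18.2% of all tested genes. Higher calls made up 23.9% beside 6.13%, and lower calls 4.35% beside 12.1%. Among the 5438 tested genes with a mean level in the range of the 46, 20.8% were called, 7.01% higher and 13.8% lower. The median log2 fold change of the 46 was 0.08, beside −0.05 over all tested genes, and 71.7% of the 46 had a positive value, beside 38.3%. All siMTA1 values lay above all control values in 15 of the 46 genes and below them in 3, where 13.2% and 25.9% of all tested genes were so placed. Over all genes the split of 744 higher and 1463 lower became 1011 and 895 under quantile normalization, 1000 and 939 under upper-quartile scaling and 1128 and 802 under median centring. Among the 46 the corresponding splits were 12 and 2, 14 and 1, and 15 and 1.

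**Figure D1:**
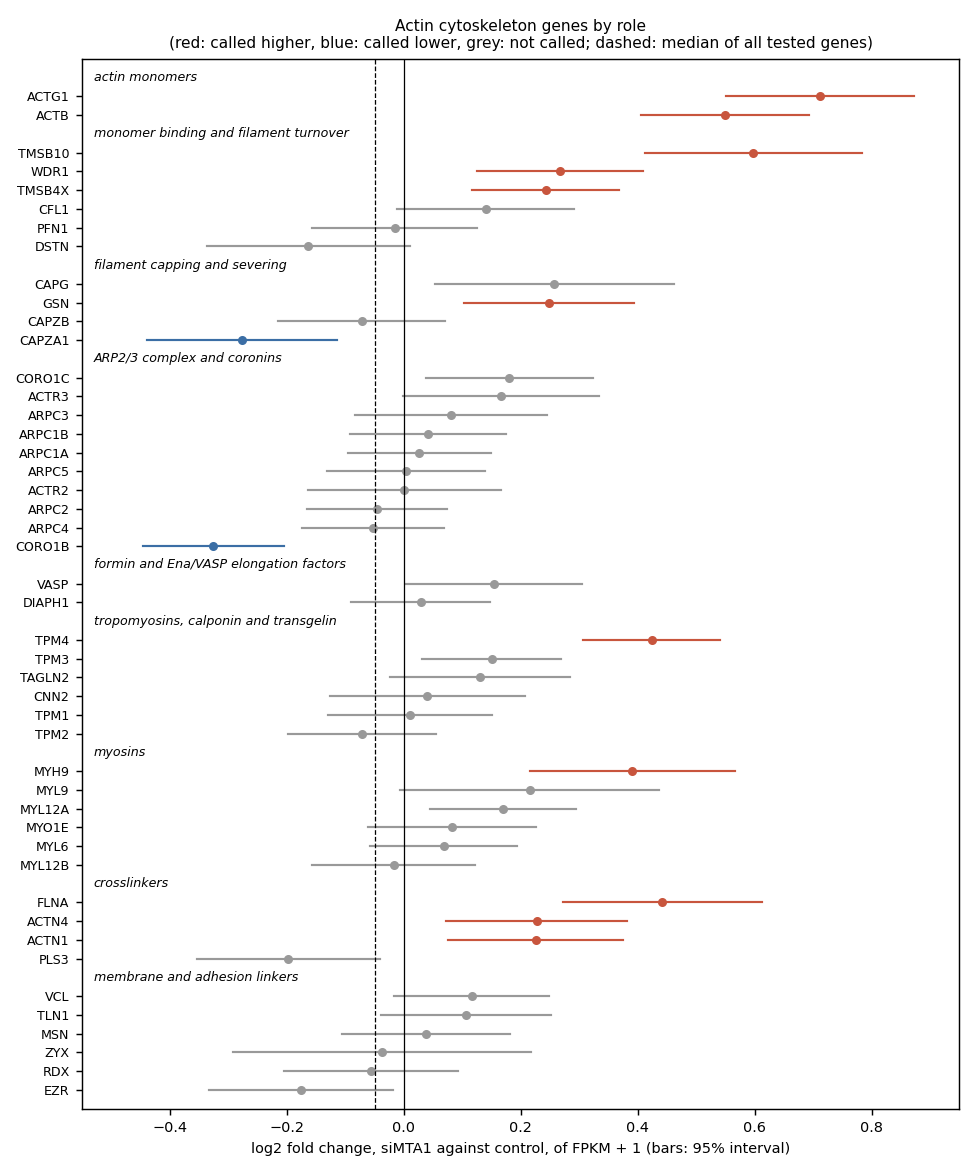
Log2 fold change (FPKM + 1 scale, horizontal axis) of the 46 genes, siMTA1 against control, grouped by role, with the 95% interval of the limma fit from 3 libraries per group; red and blue points passed the test, grey points did not, and the dashed line is the median of all tested genes, −0.05. The actins and TMSB10 lie farthest to the right, and the ARP2/3 subunits lie around 0.

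Actin subunits. Both cytoplasmic actins rose, and they were among the most abundant transcripts of the set. ACTG1, gamma actin (ENSG00000184009.9, chromosome 17, 81509971 to 81523847, minus strand, GRCh38), was at 1962.40, 2036.93 and 1956.05 FPKM in control, against 3110.34, 3064.99 and 3606.71 FPKM with siMTA1. Every siMTA1 value exceeded the highest control value by more than the control libraries differed among themselves. Its mean went from 1985 ± 45.0 FPKM to 3261 ± 301 FPKM (SD, n = 3 each), a ratio of 1.64 (log2 fold change 0.71, SE 0.07, limma adjusted p = 0.000366). This was the largest rise among the 46 genes, and 99.7% of all tested genes had a lower fold change. In bulk RNA a change in the make-up of the cells and a change in RNA per cell cannot be told apart.

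ACTB, beta actin (ENSG00000075624.13, chromosome 7, 5527147 to 5563784, minus strand), was at 488.29, 527.68 and 549.26 FPKM in control libraries and at 753.99, 733.39 and 804.26 FPKM with siMTA1. The groups were again far apart, with a ratio of means of 1.46 (log2 fold change 0.55, SE 0.06, limma adjusted p = 0.000848). Per gene length, ACTB stood at 0.249 to 0.281 of the ACTG1 level in control libraries and at 0.223 to 0.242 with siMTA1, so that the balance of the actins differed without overlap. Processed copies of ACTB and ACTG1 are scattered over the genome. In the table the 10 copies named for ACTB and the 16 named for ACTG1 summed to at most 0.0758% and 0.0489% of their parent gene, but the placing of reads that copies share is not described in the labels. The actins of muscle were low: ACTA1, ACTC1 and ACTG2 stayed under 1 FPKM, and ACTA2, of smooth muscle, went the other way, from 10.11, 10.58 and 10.80 FPKM in control to 8.29, 7.65 and 8.62 FPKM with siMTA1 (log2 fold change −0.32, limma adjusted p = 0.00823).

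**Figure D2:**
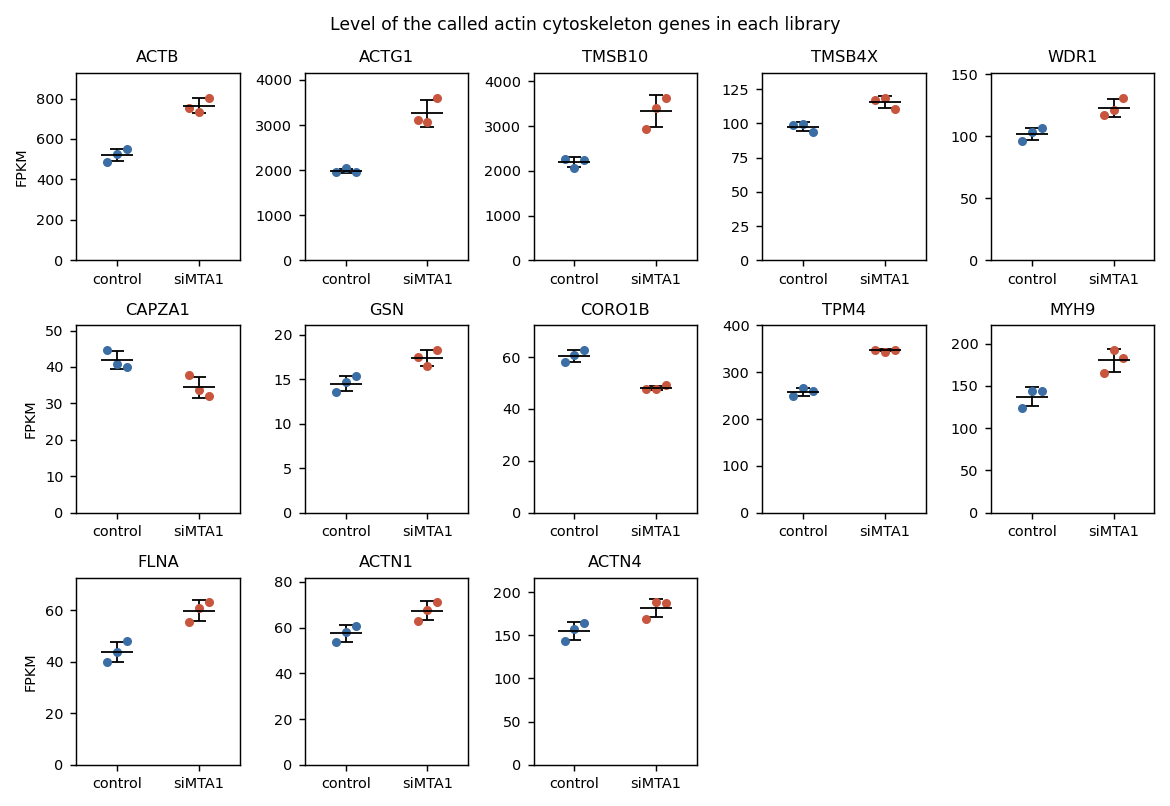
FPKM (vertical axis, from 0) of the 13 genes that passed the test in each library; points are libraries, and the bar and whiskers are the mean and SD of 3 libraries. In every panel the groups do not overlap, and CAPZA1 and CORO1B are the panels in which siMTA1 is lower.

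Holding, delivering and dismantling. Of 6 genes that bind monomers or turn filaments over, 3 rose and 0 fell, where 6.13% of all tested genes rose and 12.1% fell. TMSB10, thymosin beta 10, which sequesters actin subunits (ENSG00000034510.5, chromosome 2, 84905625 to 84906675, plus strand), was the most abundant of the 46 genes. It was at 2267.31, 2067.75 and 2250.47 FPKM in control and at 2939.66, 3418.18 and 3638.91 FPKM with siMTA1. The siMTA1 libraries differed more among themselves than the control libraries, and the groups stayed apart (ratio 1.52, log2 fold change 0.60, SE 0.08, limma adjusted p = 0.00211, but 0.0816 with no filter on low values). Its relative TMSB4X, thymosin beta 4 (ENSG00000205542.10, chromosome X, 12975108 to 12977227), rose less, from 98.98, 99.92 and 93.66 FPKM to 117.47, 118.87 and 110.34 FPKM (log2 fold change 0.24, adjusted p = 0.0182). Per gene length TMSB10 stood at 20.7 to 24.0 times the level of TMSB4X in control libraries and at 25.0 to 33.0 times with siMTA1.

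WDR1, which helps cofilin to take filaments apart (ENSG00000071127.16, chromosome 4, 10074339 to 10116949), was at 96.45, 103.03 and 106.28 FPKM in control and at 116.90, 120.87 and 131.00 FPKM with siMTA1 (log2 fold change 0.27, adjusted p = 0.0196). Cofilin itself did not pass: CFL1 was at 186.3 ± 14.6 and 205.0 ± 8.74 FPKM (SD, n = 3 each) with values that overlapped, and its relative destrin (DSTN) at 132.5 ± 14.1 and 117.9 ± 5.26 FPKM. Profilin (PFN1), which delivers subunits to growing filaments, was at 286.2 ± 17.4 and 282.9 ± 12.7 FPKM, with a 95% interval of the log2 difference from −0.16 to 0.13. The genes for subunits and for their thymosin buffer passed the test while those for profilin and cofilin did not. A difference between these genes was not tested, and the 95% intervals of CFL1 (−0.01 to 0.29) and TMSB4X (0.12 to 0.37) overlapped. Unfiltered, TMSB4X no longer passed (adjusted p = 0.0639), nor did it without control library 2 (0.0541) or 3 (0.0509) or siMTA1 library 1 (0.0560) or 2 (0.0705). WDR1 no longer passed unfiltered (0.0903) or without control library 2 (0.0632) or siMTA1 library 2 (0.0553) or 3 (0.0576).

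Capping and severing. Capping protein, a dimer of an alpha and a beta chain, closes the growing end of a filament. Its alpha chain gene CAPZA1 (ENSG00000116489.12, chromosome 1, 112619173 to 112671619) fell, from 44.70, 40.91 and 39.95 FPKM in control to 37.67, 33.63 and 31.94 FPKM with siMTA1 (−0.28 on the log2 scale, limma adjusted p = 0.0287). The highest siMTA1 value was below the lowest control value. The beta chain gene CAPZB, the most abundant of the 4 genes in this group, was at 51.44, 56.83 and 56.57 FPKM in control and at 50.55, 50.48 and 55.60 FPKM with siMTA1 and did not pass (adjusted p = 0.455). Gelsolin, which severs and then caps, rose: GSN (ENSG00000148180.16, chromosome 9, 121207794 to 121332843) was at 13.57, 14.65 and 15.33 FPKM in control and at 17.48, 16.48 and 18.31 FPKM with siMTA1 (log2 fold change 0.25, adjusted p = 0.0284). The related CAPG, at 31.2 ± 4.14 and 37.4 ± 2.37 FPKM, had a difference as large, 0.26, but a wider spread (adjusted p = 0.0770). The CAPZA1 call ended under quantile normalization (0.0602), upper-quartile scaling (0.0549), median centring (0.0669) and no filter (0.126), and without control library 1 (0.0691) or 2 (0.0743) or siMTA1 library 2 (0.0941) or 3 (0.0818). The GSN call ended with no filter (0.101) and without control library 1 (0.0677) or 2 (0.0831) or siMTA1 library 1 (0.0723) or 3 (0.0807).

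Branching: the ARP2/3 complex. The ARP2/3 complex starts a new filament as a branch on an existing one. Of the 8 genes of its subunits among the 46, 0 passed the limma test and 0 had an unadjusted p under 0.05. In all 8 the groups overlapped, while in 39.1% of all tested genes they did not. The log2 fold changes ran from −0.05 for ARPC4 to 0.17 for ACTR3, and the widest of their 95% intervals reached 0.33. ARPC3, the most abundant, was at 251.51, 230.89 and 204.83 FPKM in control and at 239.50, 244.88 and 240.17 FPKM with siMTA1. The core subunit genes ACTR2 and ACTR3 were at 49.4 ± 2.82 and 43.5 ± 3.73 FPKM in control and at 49.5 ± 4.31 and 48.8 ± 3.12 FPKM with siMTA1 (SD, n = 3 each). ARPC5 and ARPC4 were the least abundant of the 8, at 9.20 ± 0.511 and 20.1 ± 0.731 FPKM in control. ARPC5L, a subunit gene outside the 46, fell from 20.5 ± 0.855 to 17.8 ± 0.592 FPKM with siMTA1. Its log2 fold change was −0.19 (limma adjusted p = 0.0427, but 0.0943 with no filter on low values). Beyond these, ARPC1A was at 106.1 ± 3.34 FPKM, ARPC1B at 85.9 ± 3.50 FPKM and ARPC2 at 114.5 ± 3.78 FPKM in control, with log2 fold changes of 0.03, 0.04 and −0.05. The gene AC004922.1 shares 58.4% of the exon bases of ARPC1A and 32.4% of those of ARPC1B in GENCODE 29, so the levels of both are uncertain.

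Coronins limit ARP2/3 at older branches. Of the coronin genes CORO1B and CORO1C, only CORO1B passed, and their differences had opposite signs. CORO1A, a coronin gene outside the 46, rose at a low level, from 1.33 ± 0.115 to 2.23 ± 0.116 FPKM (log2 fold change 0.47, limma adjusted p = 0.00279). CORO1B (ENSG00000172725.13, chromosome 11, 67435510 to 67443821, minus strand) was at 58.05, 60.76 and 62.81 FPKM in control and at 47.51, 47.62 and 49.10 FPKM with siMTA1. Its siMTA1 values were nearly equal and all lay well under the control values (a log2 difference of −0.33, limma adjusted p = 0.00465), the largest fall among the 46 genes. CORO1C went from 21.56, 21.40 and 19.75 FPKM to 25.06, 22.25 and 24.17 FPKM, without overlap but without passing (log2 fold change 0.18, adjusted p = 0.0772). CORO1C passed under array weights, quantile normalization, upper-quartile scaling and median centring. The ratio of CORO1B to CORO1C was 2.69 to 3.18 in control libraries and 1.90 to 2.14 with siMTA1. PTPRCAP shares 24.3% of the exon bases of CORO1B on the same strand, so the value of CORO1B is uncertain to that extent.

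Formin and Ena/VASP. Of the genes that lengthen filaments, neither passed, with 1 at an unadjusted limma p under 0.05. VASP was at 43.22, 40.95 and 44.46 FPKM in control and at 44.92, 46.68 and 52.12 FPKM with siMTA1 (log2 fold change 0.15, adjusted p = 0.133). The values just cleared each other. DIAPH1, a formin, was at 36.4 ± 0.447 and 37.2 ± 1.37 FPKM (adjusted p = 0.733).

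Tropomyosins and the calponin family. Tropomyosins wind along filaments and set which partners can bind, and of the 4 tropomyosin genes only TPM4 passed. TPM4 (ENSG00000167460.14, chromosome 19, 16067021 to 16103005, plus strand) was at 249.01, 266.25 and 259.66 FPKM in control and at 347.94, 344.13 and 347.90 FPKM with siMTA1. The siMTA1 libraries agreed to within a few FPKM, far above every control library (ratio 1.34, log2 fold change 0.42, SE 0.05, limma adjusted p = 0.00117). TPM3 was at 132.85, 134.51 and 127.24 FPKM and at 145.48, 142.39 and 150.31 FPKM, apart but not called (log2 fold change 0.15, adjusted p = 0.0764). It passed under array weights, upper-quartile scaling and median centring. TPM2 had values from 202.99 to 231.54 FPKM over all 6 libraries, and TPM1 was low, from 7.47 to 8.46 FPKM. Per gene length TPM4 stood above TPM2 in both groups, and with siMTA1 the means were 346.7 and 213.1 FPKM, against 258.3 and 223.8 FPKM. The filament-binding genes CNN2 (46.3 ± 4.51 and 47.5 ± 1.80 FPKM) and TAGLN2 (29.2 ± 1.90 and 32.1 ± 2.07 FPKM) did not pass.

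**Figure D3:**
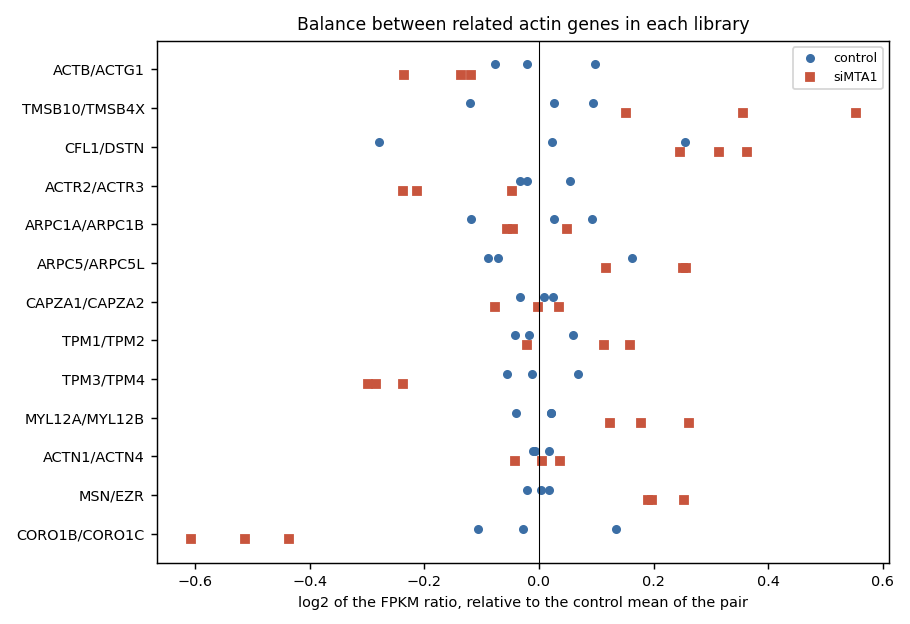
Log2 of the FPKM ratio of 13 pairs of related genes in each library (horizontal axis), set to 0 at the mean of the control libraries of that pair; circles are control and squares siMTA1 libraries. CORO1B/CORO1C and TPM3/TPM4 lie to the left with siMTA1, TMSB10/TMSB4X and MSN/EZR to the right, and ACTN1/ACTN4 and CAPZA1/CAPZA2 overlap.

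The balance within related genes was set out for 13 pairs fixed with the gene lists. In 7 pairs the ratios of the 2 groups did not overlap: ACTB/ACTG1, TMSB10/TMSB4X, ACTR2/ACTR3, TPM3/TPM4, MYL12A/MYL12B, MSN/EZR and CORO1B/CORO1C. The largest shift in log2 ratio was −0.51 for CORO1B/CORO1C, followed by 0.36 for TMSB10/TMSB4X. In ACTN1/ACTN4 the shift was −0.0018, with ratios of 0.368 to 0.375 in control and 0.360 to 0.380 with siMTA1. The exact two-sided permutation test gave p = 0.1 for each of the 7 pairs, the smallest that 3 against 3 libraries allow, and p = 0.186 after adjustment over the 13 pairs, so no pair could pass.

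Myosin. Non-muscle myosin II is built from heavy chains and light chains, and of the 6 myosin genes only the heavy chain gene MYH9 passed. A difference between heavy and light chain genes was not tested. The limma interval of the log2 fold change of MYH9 (0.22 to 0.57) overlapped those of MYL12A (0.04 to 0.29) and MYL9 (−0.01 to 0.44). It lay above those of MYL6 (−0.06 to 0.19) and MYL12B (−0.16 to 0.12). MYH9 (ENSG00000100345.20, chromosome 22, 36281277 to 36388067, minus strand) was at 124.05, 144.06 and 144.49 FPKM in control and at 165.66, 192.83 and 183.10 FPKM with siMTA1. In each group library 1 was the lowest, and the groups did not overlap (ratio 1.31, log2 fold change 0.39, SE 0.08, limma adjusted p = 0.0103, but 0.0837 with no filter on low values). The regulatory light chain gene MYL12A, the most abundant of the 6 myosin genes, was at 222.75, 209.33 and 203.34 FPKM and at 239.42, 232.65 and 242.56 FPKM, apart but not called (log2 fold change 0.17, adjusted p = 0.0619). It passed under 6 of the 17 alternatives. Its neighbour MYL12B, which codes for nearly the same protein, had means of 177.8 ± 12.3 and 175.5 ± 4.90 FPKM, and reads could have been split between them. MYL6, the essential light chain (114.0 ± 4.68 and 119.6 ± 4.0 FPKM), MYL9 (12.5 ± 1.65 and 14.6 ± 1.55 FPKM) and the single-headed myosin gene MYO1E (28.1 ± 0.331 and 29.9 ± 2.37 FPKM) did not pass.

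Crosslinkers. Of 4 genes whose proteins bundle or crosslink filaments, 3 rose and 0 fell, where 6.13% of all tested genes rose and 12.1% fell. The groups did not overlap in any of the 4, with siMTA1 higher in 3 and lower in 1. Among all tested genes 39.1% had groups that did not overlap. Filamin A, which joins filaments at wide angles, is coded by FLNA (ENSG00000196924.14, chromosome X, 154348524 to 154374638, minus strand). It was at 39.98, 43.65 and 47.84 FPKM in control and at 55.48, 60.86 and 63.14 FPKM with siMTA1 (ratio 1.37, log2 fold change 0.44, SE 0.08, limma adjusted p = 0.00574, but 0.0530 with no filter on low values). The alpha-actinins rose by equal amounts. ACTN4 (ENSG00000130402.11, chromosome 19, 38647649 to 38731583) was at 143.29, 157.46 and 164.64 FPKM and at 169.17, 188.61 and 187.22 FPKM (log2 fold change 0.23, adjusted p = 0.0485). ACTN1 (ENSG00000072110.13, chromosome 14, 68874143 to 68979440) was at 53.71, 57.93 and 60.70 FPKM and at 62.86, 67.92 and 71.20 FPKM (log2 fold change 0.23, adjusted p = 0.0449). Plastin 3, a bundling protein, differed in the other direction without passing: PLS3 was at 17.54, 14.75 and 15.30 FPKM and at 14.05, 13.69 and 13.28 FPKM (log2 fold change −0.20, adjusted p = 0.0767).

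The alpha-actinin calls were close to the threshold. ACTN1 had an adjusted p of 0.104 and 0.115 when control library 1 or 2 was left out, 0.123 without either siMTA1 library 2 or 3, 0.154 with no filter and 0.0564 without the intensity trend. ACTN4 had one of 0.113 without either control library 1 or 2, 0.151 and 0.119 without siMTA1 library 2 or 3, 0.181 with no filter, 0.0604 without the trend and 0.0521 under quantile normalization.

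Membrane and adhesion linkers. None of the 6 genes passed the test, with 1 at an unadjusted limma p under 0.05. That one was EZR, ezrin, which ties filaments to the membrane of microvilli and was the third most abundant of the 46 genes. EZR was at 1745.88, 1896.51 and 1964.35 FPKM in control and at 1579.54, 1601.72 and 1783.12 FPKM with siMTA1, with 1 siMTA1 value inside the control range (log2 fold change −0.18, adjusted p = 0.108). It passed under quantile normalization and array weights. Its relatives moesin (MSN, 69.7 ± 3.37 and 71.7 ± 4.53 FPKM) and radixin (RDX, 40.8 ± 3.44 and 39.1 ± 0.885 FPKM) were far less abundant per gene length. Of the focal adhesion genes, vinculin (VCL) was at 24.7 ± 0.638 and 26.9 ± 1.52 FPKM and talin (TLN1) at 19.7 ± 0.870 and 21.2 ± 1.47 FPKM. Zyxin (ZYX) had the widest interval of the set, from −0.29 to 0.22 on the log2 scale, because control library 3 stood at 29.54 FPKM against 20.61 and 23.26 FPKM.

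**Figure D4:**
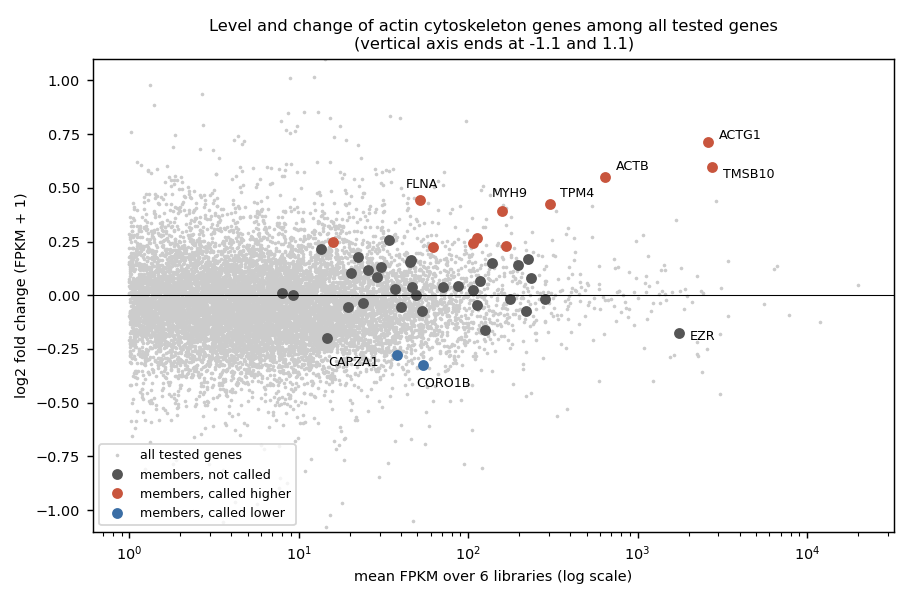
Mean FPKM over 6 libraries (horizontal, log scale) and log2 fold change (vertical) of all tested genes (light grey) and of the 46 actin cytoskeleton genes (large points). ACTG1, TMSB10 and ACTB stand above other genes of like level, and 16 tested genes lie beyond the axis, which ends at −1.1 and 1.1.

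As a share of all FPKM in a library, the 46 genes made up 2.54%, 2.57% and 2.56% in control libraries 1, 2 and 3 and 3.11%, 3.23% and 3.48% with siMTA1. The control libraries agreed closely, and each siMTA1 library lay above them. Actins went from 0.621% to 0.648% in control to 0.968% to 1.11% with siMTA1, and the group of thymosins, profilin and turnover factors from 0.726% to 0.773% to 0.960% to 1.14%. The ARP2/3 and coronin group stayed at 0.177% to 0.192% and 0.187% to 0.191%, and the capping and severing group at 0.0346% to 0.0365% and 0.0346% to 0.0367%. The linkers, of which EZR is the greater part, were at 0.486% to 0.533% and 0.449% to 0.498%. ACTG1, TMSB10, EZR and ACTB together made up 64.3% to 65.1% of the summed FPKM of the 46 genes in control and 68.9% to 71.3% with siMTA1. Library siMTA1 3 held the highest value of its group in 31 of the 46 genes (67.4%, beside 39.9% of all tested genes), and control library 1 the lowest of its group in 24 (52.2%, beside 39.1%). Without siMTA1 library 3, 7 of the 46 genes rose and 1 fell.

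**Figure D5:**
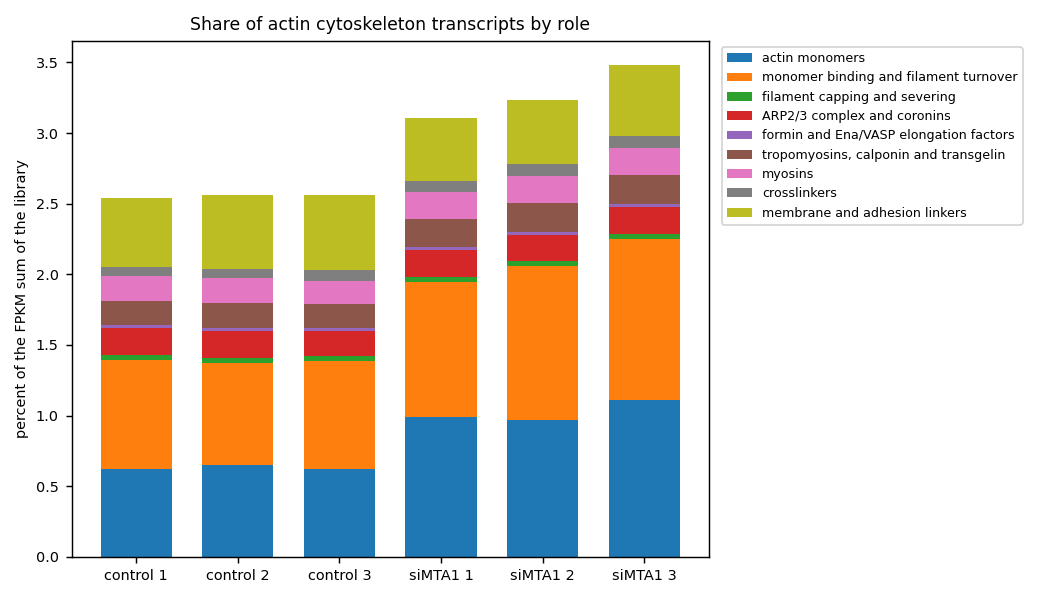
Percent of the FPKM sum of each library (vertical axis, from 0) held by the 46 genes, stacked by role, for 3 control and 3 siMTA1 libraries. The total is 2.54% to 2.57% in control and 3.11% to 3.48% with siMTA1, and the lower bars, actins and monomer binding, account for most of the difference.

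Other genes of the actin pathway were read from 7 lists with 99 genes in the table, of which 90 were tested. Of these 8 rose and 10 fell, a share near the 18.2% of all tested genes, and their median log2 fold change was −0.01. In the list of WASP, WAVE and cortactin genes 3 of 14 fell (21.4%, beside 12.1% of all tested genes) and 0 rose. These were CTTN, cortactin, from 118.2 ± 5.01 to 97.0 ± 7.13 FPKM (log2 fold change −0.28), and CYFIP2 of the WAVE complex (−0.22). The other was ARPC5L (−0.19), a gene of an ARP2/3 subunit and not of an upstream factor. Among formins and Ena/VASP genes EVL alone passed, with 1.70 ± 0.0153 and 2.27 ± 0.110 FPKM (log2 fold change 0.27), and among turnover genes PFN2, a profilin, fell (−0.20). Of 13 further myosin genes and regulators, MYO9B (0.32), MYH14 (0.30) and MYH10 (0.21) rose and MYO5A fell (−0.30). MYH14 and MYH10, the other heavy chains of non-muscle myosin II, went from 38.9 ± 1.36 to 48.3 ± 4.41 FPKM and from 17.6 ± 0.905 to 20.5 ± 0.783 FPKM.

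Of 19 further crosslinkers and linkers 4 rose (21.1%, beside 6.13% of all tested genes) and 2 fell (10.5%, beside 12.1%). PDLIM5, which binds alpha-actinin, was at 5.71, 5.48 and 5.17 FPKM in control and at 10.74, 9.53 and 10.77 FPKM with siMTA1 (log2 fold change 0.81, limma adjusted p = 9.89e-05), a greater rise than that of any of the 46 genes. PDLIM7 rose from 51.6 ± 1.25 to 62.7 ± 0.444 FPKM (0.28). PARVA, a partner of integrin-linked kinase at adhesions, fell from 4.29 ± 0.366 to 3.14 ± 0.160 FPKM (−0.35). In the list of MRTF, SRF and genes known to respond to them or to YAP, 3 of 8 fell (37.5%, beside 12.1% of all tested genes) and 0 rose (beside 6.13%). These were CYR61 from 9.22 ± 0.287 to 6.95 ± 0.293 FPKM (−0.36), FHL2 from 16.4 ± 0.822 to 12.6 ± 0.396 FPKM (−0.35) and AMOTL2 from 11.2 ± 0.411 to 8.89 ± 0.50 FPKM (−0.31). The list holds none of the 46 genes. Of those with a CArG box, ACTG1, FLNA, TPM4 and ACTN1 rose and CNN2 and MYO1E did not pass. SRF itself had means of 11.97 ± 0.231 FPKM (control) and 10.9 ± 0.302 FPKM (siMTA1) (adjusted p = 0.123), the coactivator genes MKL1 and MKL2 did not pass (adjusted p = 0.646 and 0.842), and neither did CTGF (0.393) or TAGLN (0.124).

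Of the called genes named from these 7 pathway lists, 9 lost their call under at least 1 alternative, each of these 9 when no filter was set, and those of PDLIM5, PDLIM7, MYO9B, CYR61, FHL2 and AMOTL2 held under each of them. Neither ACTA2 nor the cell type markers were set out under the alternatives. Without control library 2 the limma adjusted p was 0.145 for ARPC5L, 0.0801 for CTTN, 0.102 for CYFIP2, 0.0642 for EVL, 0.0744 for MYH10, 0.0692 for MYO5A and 0.111 for PFN2. Without siMTA1 library 2 it was 0.134 for ARPC5L, 0.104 for CYFIP2, 0.0552 for EVL, 0.126 for MYH10, 0.0776 for MYH14, 0.0580 for MYO5A and 0.102 for PFN2. Without siMTA1 library 3 it was 0.0842 for ARPC5L, 0.0503 for CTTN, 0.0525 for EVL, 0.101 for MYH10, 0.0593 for MYH14 and 0.0666 for PFN2. Without siMTA1 library 1 it was 0.0684 for ARPC5L, 0.108 for CYFIP2, 0.0560 for MYH10 and 0.0696 for PFN2. Without control library 1 it was 0.0896 for ARPC5L, 0.0668 for MYH10 and 0.0695 for PFN2, and without control library 3 it was 0.0973 for CYFIP2 and 0.111 for MYH10. PARVA lost its call in the unfiltered fit alone (0.0620). Under quantile normalization, upper-quartile scaling and median centring ARPC5L, CYFIP2 and PFN2 did not pass, with adjusted p from 0.0720 to 0.126, and under median centring CTTN did not (0.0515).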

How the data were processed

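PolyA-selected RNA of 3 control and 3 siMTA1 samples was sequenced as directional paired-end libraries, per the labels' protocols. The authors deposited FPKM for 36651 genes. The submitters' processing notes name cutadapt, TopHat2, edgeR and GRCh38, without versions or roles. The sources used here do not give gene lengths, the counting method or its use of strand. These bear on comparisons of level between genes, and on genes with overlaps or near-identical copies: on the opposite strand CAPN12 covers 14.2% of the exon bases of ACTN4, and ST7L 15.1% of those of CAPZA1.

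The 12141 genes whose mean reached 1 FPKM were fitted with limma 3.58.1 in R 4.3.3 on log2(FPKM + 1), with an intensity trend, two-sided, adjusted by Benjamini and Hochberg, and called at 0.05. The pseudocount shrinks fold changes of low genes. The fit was also run on values simulated with independent noise for each gene and library, and no result here rests on that run. Depth per library was estimated from short genes (under 150 bases) whose low values fall on steps of 1 fragment, within 0.04, which assumes GENCODE 29 lengths. Coordinates are from that release. Ratios of related genes used exact permutation tests. Promoter windows came from RefSeq. Python 3.11.15, pandas 2.3.3 and matplotlib 3.10.9 made tables and figures. The alternatives were other pseudocounts, filters, scalings and limma settings, a block for the replicate number, and fits that left out 1 library each.

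The genes named in full are MTA1, members that passed, the most abundant and the most changed member of each role, and up to 4 called genes of each other pathway list by adjusted p. The members and lists were chosen with earlier results of these data known, and the CArG box was searched after the values had been seen.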

Additional observations from a re-analysis of the deposited data

How the results depend on the processing

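Of the 13 calls, those of ACTB, ACTG1, TPM4 and CORO1B held under all 17 alternatives, and those of TMSB10, FLNA and MYH9 under all but the lack of a filter. With no filter on low values, 3 members rose and 1 fell, with 297 higher and 379 lower among 33126 genes. Under array weights 17 members were higher, and over all genes 1434 higher and 2615 lower. Lower calls over all genes were 895 under quantile normalization, 939 under upper-quartile scaling and 802 under median centring, the last with 1128 higher. Lower members were 1 under upper-quartile scaling and 1 under median centring. Leaving out 1 library at a time gave 6 to 11 members higher and 1 to 2 lower, and over all genes 391 to 633 higher and 642 to 1191 lower. The members called were 6 higher and 1 lower without control library 2, and 7 and 1 without siMTA1 library 2 or 3. The median log2 fold change of the members ranged between 0.06 and 0.14 under all alternatives. Under quantile normalization the log2 ratio shifts were 0.25 for MYL12A/MYL12B, 0.046 for ACTN1/ACTN4 and 0.26 for MSN/EZR.

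Sign changes arose in 13 members, which did not pass in those settings. The log2 fold change of PFN1 was 0.00045 under TPM, 0.029 under upper-quartile scaling and 0.038 under median centring. That of ZYX was 0.010 under quantile normalization, 0.0059 under upper-quartile scaling and 0.017 under median centring. That of MYL12B was 0.027 under upper-quartile scaling, 0.037 under median centring and 0.018 with array weights. Under median centring ARPC2 was at 0.0088 and ARPC4 at 0.0014. With array weights ACTR2 was at −0.014, ARPC1B at −0.019, CNN2 at −0.027 and TPM1 at −0.0072. When 1 library at a time was left out, the values ran from −0.055 to 0.068 for ACTR2, −0.020 to 0.045 for ARPC5, −0.042 to 0.082 for CNN2, −0.00065 to 0.046 for DIAPH1, −0.0087 to 0.081 for MSN, −0.054 to 0.038 for MYL12B, −0.054 to 0.032 for PFN1, −0.10 to 0.0089 for RDX, −0.029 to 0.034 for TPM1 and −0.15 to 0.10 for ZYX. The cause of these shifts was not tested.

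With the replicate number as a block, 14 members were higher and 3 lower, with 992 higher and 2039 lower over all genes, and CAPG, MYL12A, MYL9 and PLS3 passed as well. Deviations of same-numbered libraries correlated at 0.33, 0.02 and 0.22 across genes. Control libraries 1 and 3 correlated best with the siMTA1 library of their own number, and control library 2 with siMTA1 library 3 (0.07). The numbers were not taken as pairs in the main fit, and an effect shared by same-numbered libraries was not tested.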
